A study of Homo sapiens with 6 samples.

Results

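Mismatch repair genes were followed in OVCAR5 cells treated with NTX301 or with its solvent. OVCAR5 is an established human line that serves in ovarian cancer research. The genes were MSH3, MSH6, MLH3, PMS1, PMS2 and EXO1, 6 of the 62656 genes in the tables, found by matching the Ensembl identifiers of the tables to gene symbols. RNA was sequenced from 3 libraries of cells given 100 nM NTX301, a DNA hypomethylating agent by the series title, and from 3 libraries of cells given dimethyl sulfoxide (DMSO). Both groups were cultured in the same medium and treated for 3 days, and no genetic change is given for either. The lower dose of 10 nM that the labels mention was not analysed here. Separate cultures are not stated for libraries of one treatment, and p-values reflect only how far these libraries spread, which may be technical. As a model the study is limited to 1 cell line.

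Mismatch repair removes bases that DNA polymerases put in wrongly, and small loops left by slippage in repeats. MSH6 and MSH3 are the alternative subunits of the sensor complexes MutSα and MutSβ. MutSα binds single mismatches and small loops, and MutSβ binds larger loops. PMS2, PMS1 and MLH3 are the alternative subunits of MutLα, MutLβ and MutLγ, which are recruited by the sensors. PMS2 carries the endonuclease that nicks the new strand, MLH3 carries a related endonuclease known best from meiosis, and the role of PMS1 is less clear. EXO1, an exonuclease, then removes the stretch with the error, and replication proteins fill the gap. Loss of mismatch repair makes tumours mutable at repeats, and MutS and MutL complexes also signal damage from some base-modifying drugs.

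With NTX301, EXO1 and PMS2 rose and MSH3 fell, while MSH6, MLH3 and PMS1 did not pass the test. EXO1 was 3.67-fold higher with NTX301 and PMS2 was 1.45-fold higher. MSH3 fell by 0.29 on the log2 scale, a fall that depends on how libraries are scaled. All 6 genes were expressed enough to be tested. By edgeR's quasi-likelihood test with Benjamini-Hochberg adjustment over all genes (threshold 0.05), 3 of the 6 changed, 2 up and 1 down, against 70.5% of the 19029 genes tested, 35.4% up and 35.1% down. The share of mismatch repair genes that changed was thus no higher than that of genes in general. Their median log2 fold change was -0.02, against 0.0 over all tested genes.

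Start windows are shown first, since genes that start close to members on the other strand come into the results. Windows of 300 bases, with 250 before and 50 after the annotated start, were taken from RefSeq (GRCh38.p14), and the windows of EXO1, MSH6, PMS2, PMS1 and MLH3 are described, while that of MSH3 was not used here. They were searched on both strands for the E2F-type words TTTCCCGC, TTTGGCGC, TTTCGCGC and TTTGCCGC, which E2F factors, regulators of replication genes, are known to bind. These words were chosen with the promoter sequences in view. Of 27305 windows, 1 a gene, 3.3% held at least 1 of these words. EXO1, MSH6 and PMS2 each held 1, and their windows follow, 5′ to 3′ on the strand of the gene, with the words in capitals. The EXO1 window is chr1:241847954-241848253 on the plus strand, the MSH6 window chr2:47782895-47783194 on the plus strand and the PMS2 window chr7:6009057-6009356 on the minus strand.
EXO1: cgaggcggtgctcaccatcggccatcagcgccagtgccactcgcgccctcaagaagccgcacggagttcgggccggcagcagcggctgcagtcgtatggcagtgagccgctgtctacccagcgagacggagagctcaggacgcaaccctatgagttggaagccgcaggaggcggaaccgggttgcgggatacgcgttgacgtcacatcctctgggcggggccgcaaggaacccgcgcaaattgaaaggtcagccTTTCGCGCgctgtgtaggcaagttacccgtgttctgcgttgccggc
MSH6: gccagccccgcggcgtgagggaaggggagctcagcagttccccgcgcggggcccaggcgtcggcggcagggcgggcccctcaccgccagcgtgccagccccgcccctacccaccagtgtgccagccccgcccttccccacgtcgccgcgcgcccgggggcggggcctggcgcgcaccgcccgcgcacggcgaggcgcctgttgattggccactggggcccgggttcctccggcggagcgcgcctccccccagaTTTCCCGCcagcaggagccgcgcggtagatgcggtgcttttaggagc
PMS2: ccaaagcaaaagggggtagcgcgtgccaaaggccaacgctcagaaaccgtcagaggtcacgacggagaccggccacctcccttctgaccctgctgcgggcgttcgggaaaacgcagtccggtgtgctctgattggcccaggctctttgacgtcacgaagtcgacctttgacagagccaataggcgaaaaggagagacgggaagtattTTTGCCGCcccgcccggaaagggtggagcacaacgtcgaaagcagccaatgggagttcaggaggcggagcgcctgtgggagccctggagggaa
The word of EXO1 starts 4 bases after the start site and that of MSH6 starts 3 bases after it. The word of PMS2 starts 43 bases before the start site, and the same bases were found on the other strand of the window of its neighbour AIMP2. Neither the MLH3 nor the PMS1 window held any of the words, which says only that these letters are not in those windows. CCAAT boxes, found on either strand in 35.7% of all windows, stood in those of MSH6, PMS1 and PMS2. A match of letters is a description of these windows and not a measured binding site. All 5 windows held more CpG sites, the sites at which DNA is methylated, than the median window with 14. PMS1 had the most with 40, MSH6 had 39, EXO1 33, PMS2 24 and MLH3 22. Methylation of these sites was not analysed here.

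The libraries held 23194160 to 23842859 estimated reads with NTX301 and 22131175 to 25743732 with DMSO. Per library, the members had between 168 (EXO1 with DMSO) and 2770 (MSH6 with NTX301) reads. The first principal component of log2 CPM, with 79.9% of the variance, separated the treatments, while DMSO replicate 3 lay away from the other DMSO libraries on the next component, with 6.34%. Values without that library are given for EXO1, PMS2 and MSH3, the members that changed, and not for the other genes named. CPM are counts relative to the library total after scaling by TMM, which assumes that the typical gene does not change. TPM, as the authors deposited them, are corrected for transcript length and are the scale on which genes are compared with each other. Without any scaling factor the median log2 fold change of all genes moved to 0.21, and on log2(TPM + 1) to 0.17, so fold changes here are relative to the typical gene. Epithelial markers (KRT8, KRT18, KRT19, CLDN3, CLDN4 and CDH1) were present in both groups, summing to 2410 to 2487 TPM with NTX301 and 4310 to 4491 TPM with DMSO. Of these 6 genes 5 fell, and the sum is mostly KRT8 and KRT18, while CDH1 rose (4.93 TPM with NTX301 and 3.36 TPM with DMSO, log2 0.31 ± 0.09). Ovarian lineage markers summed to 8.7 to 9.84 TPM with NTX301 and 5.83 to 6.35 TPM with DMSO, nearly all of it PAX8, which did not pass the test (log2 0.22 ± 0.11, edgeR adjusted p = 0.0945). MUC16 fell (log2 -2.31 ± 0.26) and WT1 was too low to test, both under 0.2 TPM on average in each group. Leukocyte markers summed to 50.6 to 57.0 TPM with NTX301 and 24.5 to 30.8 TPM with DMSO, nearly all of it CD68, which rose (log2 0.72 ± 0.08), whereas PTPRC and CD3E were under 0.1 TPM in all libraries. Fibroblast markers summed to 3.48 to 3.99 TPM with NTX301 and 1.16 to 1.58 TPM with DMSO, where PDGFRB rose (log2 2.97 ± 0.19), LUM fell (log2 -0.66 ± 0.21) and DCN was too low to test. Endothelial markers summed to 2.09 to 2.35 TPM with NTX301 and 1.47 to 1.63 TPM with DMSO, where CDH5 (log2 1.12 ± 0.19) and VWF (log2 0.98 ± 0.41) rose and PECAM1 did not pass the test (log2 -0.26 ± 0.13). The part of these differences in the results was not tested. In bulk RNA, fewer cells that express a gene and less RNA per cell cannot be told apart.

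**Figure D1:**
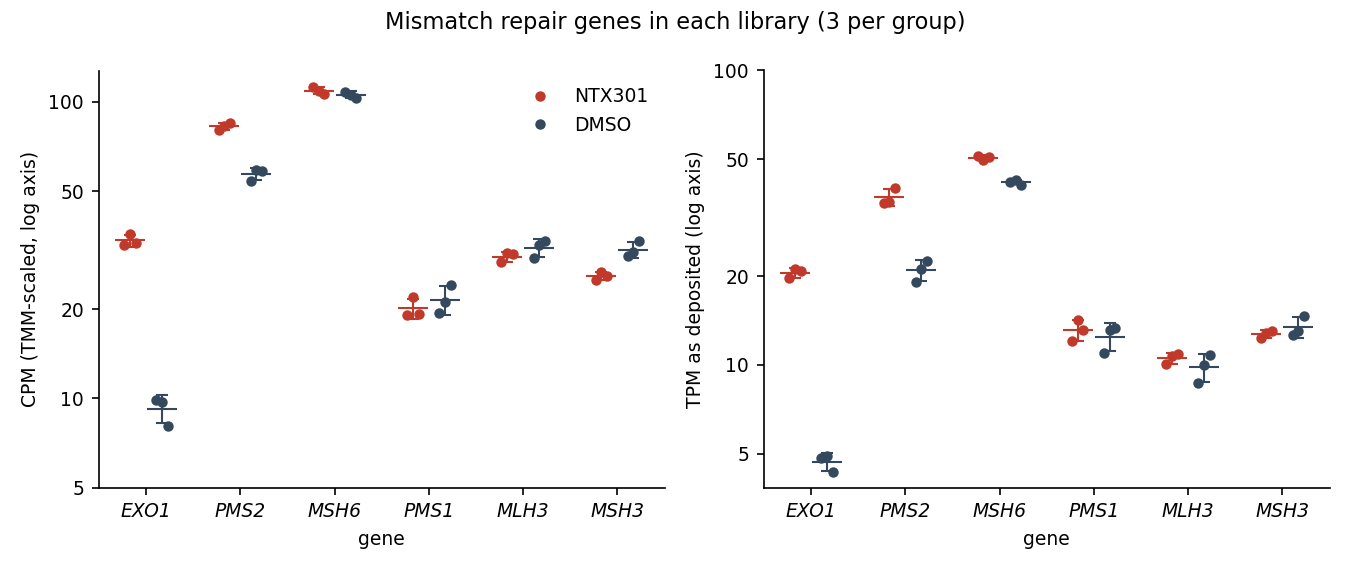
CPM after TMM scaling (left) and deposited TPM (right), both on log axes, of the 6 mismatch repair genes in each NTX301 and DMSO library (points), with the mean and SD of 3 libraries (bars). EXO1 and PMS2 lie higher with NTX301 on both scales without overlap, MSH3 lies lower without overlap in CPM only, and MSH6 lies higher without overlap in TPM only.

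EXO1, the exonuclease of mismatch repair (ENSG00000174371.17, chromosome 1, 241847967 to 241895148 in GRCh38, GENCODE 29), had 32.9, 35.8 and 33.5 CPM in the NTX301 libraries, against 9.91, 9.75 and 8.09 CPM in the DMSO libraries. The lowest NTX301 library was far above the highest DMSO library. On the length-corrected scale EXO1 averaged 20.6 ± 0.799 TPM with NTX301 and 4.70 ± 0.319 TPM with DMSO (SD, n = 3 each). The log2 fold change was 1.88 ± 0.08 (estimate ± SE, edgeR adjusted p = 1.26e-09). This was above the log2 fold changes of 95.1% of all tested genes. Without DMSO replicate 3, which had the lowest EXO1 level, it was 1.78 ± 0.07. EXO1 moved more than its relatives of the RAD2 family of structure-specific nucleases, by the fitted values. GEN1, which cuts recombination junctions, averaged 59.1 ± 1.33 CPM with NTX301 and 26.3 ± 2.42 CPM with DMSO (log2 1.17 ± 0.06). FEN1, which trims flaps of lagging-strand fragments, averaged 128 ± 2.51 CPM with NTX301 and 94.8 ± 4.24 CPM with DMSO (log2 0.43 ± 0.04). ERCC5, the nucleotide excision nuclease, averaged 58.4 ± 5.19 CPM with NTX301 and 74.2 ± 2.37 CPM with DMSO and fell by 0.34 ± 0.06 on the log2 scale, but with library totals only it missed the threshold (edgeR adjusted p = 0.0704). The differences between EXO1 and these genes were not tested.

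PMS2, the endonuclease subunit of MutLα (ENSG00000122512.17, chromosome 7, 5973239 to 6009125), had 80.0, 82.9 and 84.8 CPM in the NTX301 libraries, against 54.2, 58.8 and 58.3 CPM in the DMSO libraries. The groups did not overlap. The log2 fold change was 0.53 ± 0.05 (edgeR adjusted p = 6.28e-07), and it was 0.53 ± 0.05 without DMSO replicate 3. PMS2 has many near-identical copies, between which RSEM divides reads by estimate. The 17 entries of such copies, PMS2CL and the PMS2P pseudogenes, held 412, 433 and 407 reads together in the NTX301 libraries and 422, 426 and 365 in the DMSO libraries. In these reads, which are not scaled for library size, the sums overlap between the groups. Scaled as CPM are, the sums of the copies were lower in each NTX301 library than in each DMSO library. The unscaled PMS2 reads did not overlap, at 1984, 2108 and 2181 with NTX301 and 1275, 1411 and 1209 with DMSO. The copies thus took 15.7% to 17.2% of all reads of the family with NTX301 and 23.2% to 24.9% with DMSO. Overlap of unscaled reads does not show that the copies were level, and a change of the copies alone was not tested. With all copies added to PMS2, the log2 fold change was 0.41 ± 0.04 (edgeR adjusted p = 2.41e-06). The mean transcript length that RSEM gives PMS2, which is weighted by the estimated use of its 20 transcripts, was 4299, 4393 and 4226 bases with NTX301 and 4602, 4634 and 4430 bases with DMSO. Lengths were thus shorter in every NTX301 library, and the TPM of PMS2, at 37.1 ± 2.54 with NTX301 and 20.96 ± 1.68 with DMSO (SD, n = 3 each), contain that shift.

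PMS1 (ENSG00000064933.19, chromosome 2, 189784085 to 189877629) had 19.1, 21.95 and 19.3 CPM with NTX301 and 19.4, 21.1 and 24.0 CPM with DMSO. MLH3 (ENSG00000119684.16, chromosome 14, 75013764 to 75051532) had 28.7, 30.8 and 30.6 CPM with NTX301 and 29.8, 32.9 and 33.9 CPM with DMSO. Both overlapped between the groups. Their log2 fold changes were -0.09 ± 0.08 for PMS1 (edgeR adjusted p = 0.347) and -0.10 ± 0.06 for MLH3 (edgeR adjusted p = 0.16), and both had the opposite sign without a scaling factor (0.11 for each) and on log2(TPM + 1), without passing the threshold there. MLH3 passed the threshold only when DMSO replicate 1 was left out (log2 -0.16, edgeR adjusted p = 0.0301, range over the alternatives 0.0301 to 0.396). The share of each subunit in the summed TPM of the 3 was computed after the values were seen, and scaling of libraries cancels in it. PMS2 made up 61.6%, 59.0% and 62.5% of their summed TPM with NTX301 and 49.4%, 47.9% and 48.1% with DMSO. These shares contain the shorter weighted length of PMS2 with NTX301 and RSEM's division of reads between PMS2 and its copies, which do not cancel. MLH3 made up 17.3% ± 0.35 with NTX301 and 22.7% ± 0.42 with DMSO, and PMS1 21.6% ± 1.53 with NTX301 and 28.8% ± 0.70 with DMSO (SD, n = 3 each). The shares sum to 100%, so these are not 3 independent observations. The lower shares of PMS1 and MLH3 are no fall of their own TPM, which averaged 13.1 and 10.5 with NTX301 and 12.5 and 9.84 with DMSO.

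MSH6, the MutSα subunit (ENSG00000116062.19, chromosome 2, 47695530 to 47810101, with the main start at 47783145 in RefSeq), had 112, 109 and 106 CPM in the NTX301 libraries, against 108, 106 and 103 CPM in the DMSO libraries. The groups overlapped, and the log2 fold change was 0.04 ± 0.04 (edgeR adjusted p = 0.338). Without a scaling factor MSH6 passed the threshold at 0.25 ± 0.04 (edgeR adjusted p = 7.05e-05), and it also did so on log2(TPM + 1) at 0.27 ± 0.04 (limma adjusted p = 0.000261). In TPM, MSH6 averaged 50.6 ± 0.856 with NTX301 and 41.7 ± 0.698 with DMSO (SD, n = 3 each). Its weighted transcript length was 4145 to 4173 bases with NTX301 and 4182 to 4298 bases with DMSO. The 3′ part of MSH6 shares 1785 exonic bases with FBXO11, an F-box gene on the other strand, and no strand setting of the counting is given, so reads there may not have been separated. FBXO11 fell by 0.19 ± 0.04 on the log2 scale (edgeR adjusted p = 0.000606), but had a log2 fold change of 0.01 without a scaling factor.

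MSH3, the MutSβ subunit (ENSG00000113318.11, chromosome 5, 80654648 to 80876460), had 25.0, 26.7 and 25.9 CPM in the NTX301 libraries, against 30.3, 31.1 and 33.9 CPM in the DMSO libraries. The groups did not overlap, and MSH3 fell by 0.29 ± 0.06 on the log2 scale (edgeR adjusted p = 0.000629), or by 0.26 ± 0.05 without DMSO replicate 3, which had the highest level. The fall missed the threshold with library totals only (log2 -0.09 ± 0.06, edgeR adjusted p = 0.206) or on log2(TPM + 1) (log2 -0.07 ± 0.07, limma adjusted p = 0.401), and the TPM of the groups overlapped, at 12.3, 12.8 and 13.1 with NTX301 and 12.6, 13.1 and 14.7 with DMSO. In CPM, 3 of the 6 genes (EXO1, PMS2 and MSH3) had groups that did not overlap, against 73.7% of all tested genes.

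**Figure D2:**
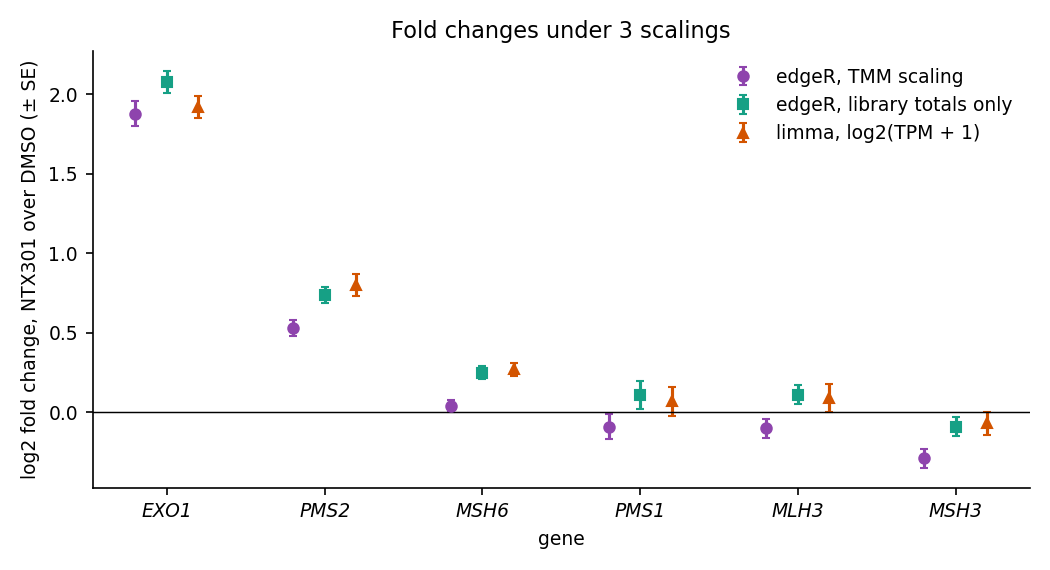
Log2 fold change with its SE (y axis) of each mismatch repair gene (x axis) in edgeR with TMM scaling, in edgeR with library totals only and in limma on log2(TPM + 1), each from 3 NTX301 and 3 DMSO libraries. EXO1 and PMS2 stand above 0 under all 3, MSH3 stands lowest under all 3 but passed the threshold only with TMM among them, and PMS1 and MLH3 lie on either side of 0.

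The balance of the alternative MutS subunits was compared within each library, where scaling cancels. The ratio of MSH6 to MSH3 in TPM was 4.18, 3.88 and 3.87 in the NTX301 libraries, against 3.32, 3.23 and 2.79 in the DMSO libraries. All NTX301 ratios were above all DMSO ratios. The log2 ratio was 0.357 higher with NTX301 (exact two-sided permutation test, p = 0.1, the smallest that 3 libraries against 3 can give). It was 1 of 5 ratios computed here, of which the other 4 were added after the values were seen, and the p adjusted over them was 0.167 in the exact permutation test.

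By length-corrected level, MSH6 was the most abundant member in both groups and PMS2 the second. EXO1 came next after PMS2 with NTX301, at 20.6 TPM, and last with DMSO, at 4.70 TPM. PMS1, MSH3 and MLH3 averaged 13.1, 12.7 and 10.5 TPM with NTX301 and 12.5, 13.5 and 9.84 TPM with DMSO. PMS1 and MSH3 did not differ beyond their spread in either group. The highest MLH3 library lay below the lowest PMS1 library with NTX301 (10.9 against 12.1 TPM), and only just below it with DMSO (10.8 against 10.9 TPM). The order of EXO1 was the one that changed between the groups beyond the spread.

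Genes that start within 1000 bases of a member and run the other way were looked for at all members but MSH3. For MSH6 only the outer GENCODE start at 47695530 was covered, and not its main start at 47783145. PMS2 and PMS1 each start within 1000 bases of a gene that runs the other way. Such genes can share a promoter region, but this was not measured here. PMS2 is paired with AIMP2, a scaffold protein of the tRNA synthetase complex, whose start lies 120 bases away in GENCODE. AIMP2 had 81.1, 80.3 and 74.6 CPM with NTX301, against 57.2, 53.8 and 46.5 CPM with DMSO, and rose by 0.58 ± 0.07 on the log2 scale (edgeR adjusted p = 8.78e-06). The ratio of AIMP2 to PMS2 in TPM averaged 3.63 ± 0.306 with NTX301 and 3.75 ± 0.572 with DMSO (SD, n = 3 each) and overlapped between the groups. PMS1 is paired with ORMDL1, a regulator of sphingolipid synthesis, whose start lies 286 bases inside the PMS1 start by the gene edges in GENCODE. The RefSeq starts, 189784339 for ORMDL1 on the minus strand and 189784450 for PMS1 on the plus strand, do not overlap in this way. In GENCODE the 2 genes share 103 exonic bases on opposite strands, so reads there may not have been separated. ORMDL1 had 67.2, 71.8 and 66.7 CPM with NTX301 and 65.6, 70.4 and 81.5 CPM with DMSO, and like PMS1 it did not pass the test (log2 -0.08 ± 0.07, edgeR adjusted p = 0.332, with the opposite sign, 0.13, without a scaling factor). The ratio of ORMDL1 to PMS1 averaged 4.42 ± 0.238 with NTX301 and 4.22 ± 0.251 with DMSO (SD, n = 3 each), also overlapping.

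**Figure D3:**
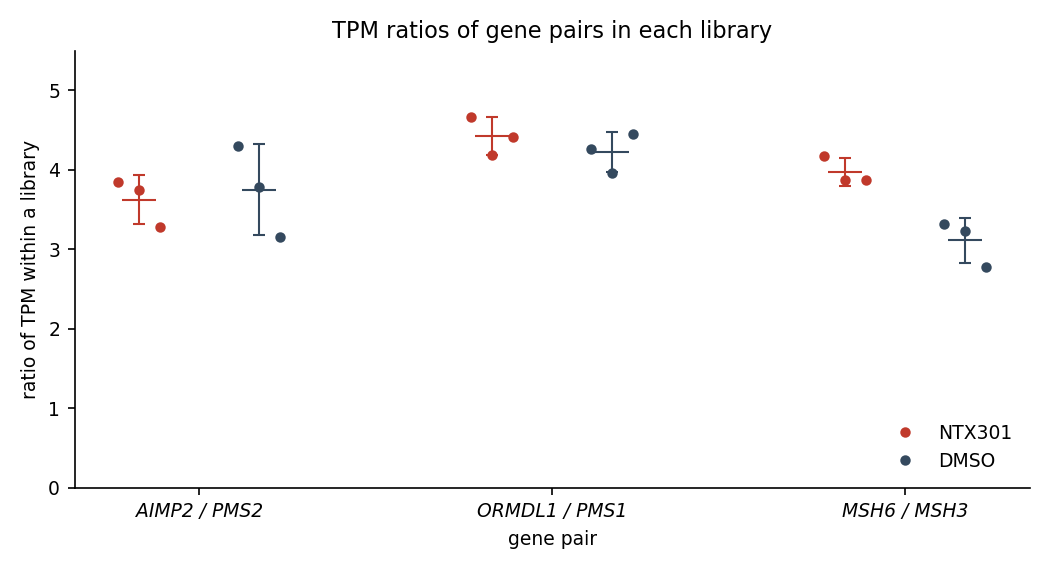
Ratio of TPM within a library (y axis) for 2 pairs of genes with opposed starts and for MSH6 to MSH3, in each NTX301 and DMSO library (points), with the mean and SD of 3 libraries (bars). The AIMP2 to PMS2 and ORMDL1 to PMS1 ratios overlap between the groups, and the MSH6 to MSH3 ratio averages 3.98 with NTX301 and 3.11 with DMSO without overlap.

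The steps after the MutS and MutL complexes were described from a list of 20 genes. Most of their products load or form the sliding clamp, coat single strands, refill the gap or seal it. The list also holds HMGB1 (log2 0.22 ± 0.04) and SSBP1, the mitochondrial single-strand binding protein (log2 0.26 ± 0.04), both counted among the rises. Of the 20 genes, 18 rose, 1 fell and 1 did not pass the test, while 35.4% of all tested genes rose and 35.1% fell. Their median log2 fold change was 0.66, against 0.0 over all tested genes. The list was chosen with earlier results of these data known, so these counts describe it and are no test. RFC3, a clamp loader subunit, averaged 113 ± 2.35 CPM with NTX301 and 34.6 ± 2.15 CPM with DMSO (log2 1.71 ± 0.05). Its partner RFC4 rose by 1.31 ± 0.05, and RFC1, the large subunit of the loader, by 0.63 ± 0.04. RPA3 and RPA1, subunits of the complex that coats single strands, rose by 0.92 and 0.48 on the log2 scale. PCNA, the sliding clamp that places MutLα on the new strand, averaged 144 ± 3.53 CPM with NTX301 and 102 ± 8.42 CPM with DMSO (log2 0.49 ± 0.05). Among subunits of DNA polymerase δ, which fills the gap, POLD3 rose by 1.13 ± 0.05, the catalytic POLD1 by 0.68 ± 0.05 and POLD2 by 0.30 ± 0.04. POLD4, the smallest subunit of that polymerase, moved the other way and averaged 32.9 ± 2.31 CPM with NTX301 and 60.7 ± 4.88 CPM with DMSO (log2 -0.88 ± 0.07, edgeR adjusted p = 2.42e-07). LIG1, the ligase that closes the nick, averaged 35.2 ± 1.08 CPM with NTX301 and 33.7 ± 1.16 CPM with DMSO and did not pass the test (log2 0.06 ± 0.05, edgeR adjusted p = 0.263), although it did without a scaling factor (log2 0.27 ± 0.05, edgeR adjusted p = 0.000435). Most of these genes also serve DNA replication.

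Among 12 genes whose products bind or act beside mismatch repair, 9 rose and 3 fell, beside 35.4% and 35.1% of all tested genes. Their median log2 fold change was 0.32, against 0.0 over all tested genes. This list, too, was chosen with earlier results known, so its counts are a description and no test. MCM8, a helicase of recombination, averaged 85.4 ± 2.34 CPM with NTX301 and 26.5 ± 0.812 CPM with DMSO (log2 1.69 ± 0.05). Its partner MCM9, a helicase that has been linked to mismatch repair, averaged 12.5 ± 0.278 CPM with NTX301 and 19.7 ± 0.446 CPM with DMSO and fell by 0.65 ± 0.06 on the log2 scale. BRIP1 and BLM, helicases that bind MutL proteins, rose by 1.05 ± 0.11 and 1.02 ± 0.05. CHAF1B and CHAF1A, the histone chaperone subunits that pack new DNA, rose by 0.71 ± 0.07 and 0.61 ± 0.04. MBD4, a glycosylase for mismatches at methylated CpG sites, rose by 0.31 ± 0.06. SETD2, which writes the histone mark that MSH6 reads, averaged 70.9 ± 2.94 CPM with NTX301 and 94.7 ± 1.76 CPM with DMSO and fell by 0.42 ± 0.04. HDAC6, a deacetylase known to act on MutS proteins, fell by 0.73 ± 0.05. FAN1, a nuclease that binds MutL proteins, lay at the threshold (log2 0.15 ± 0.06, edgeR adjusted p = 0.0493, range over the alternatives 0.000489 to 0.26), with overlapping groups, and was not past it in 8 of 16 alternatives. SETD2, MCM9 and HDAC6 kept their direction and their call without a scaling factor and on log2(TPM + 1).

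**Figure D4:**
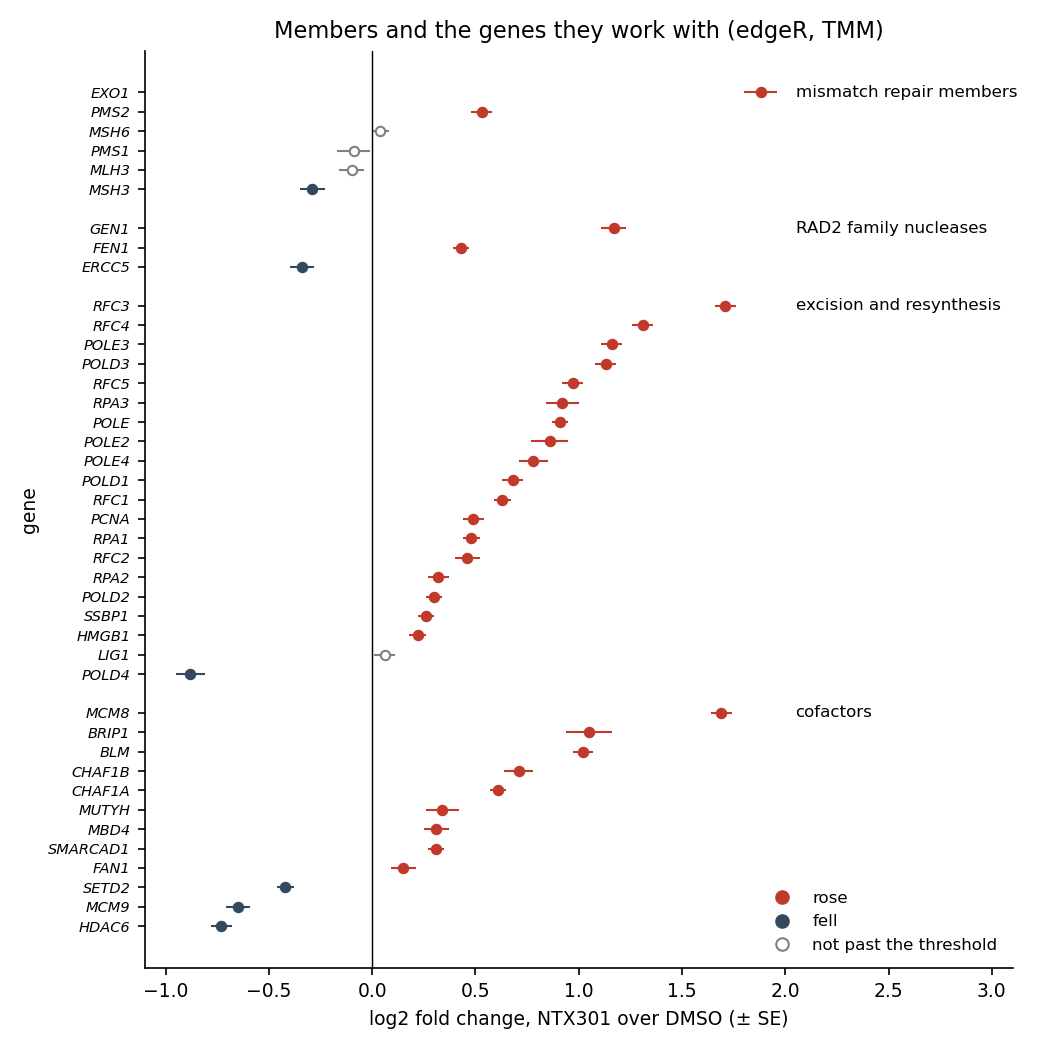
Log2 fold change with its SE from edgeR with TMM scaling (x axis) for the mismatch repair genes, the RAD2 family, the excision and resynthesis list and the cofactor list (y axis), from 3 NTX301 and 3 DMSO libraries, with filled points past the threshold. EXO1 stands highest of all genes drawn at 1.88, and POLD4 lowest at -0.88.

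The meiotic MutS homologs, which act in crossing over, were looked at as the nearest relatives of MSH6 and MSH3. MSH5 had 14.3, 11.3 and 16.7 CPM with NTX301 and 14.7, 17.4 and 12.7 CPM with DMSO and did not pass the test (log2 -0.09 ± 0.14, edgeR adjusted p = 0.596, with the opposite sign, 0.12, without a scaling factor). Reads of MSH5 may be divided with the readthrough transcript MSH5-SAPCD1, which was not looked at here, so the level of MSH5 is uncertain. MSH4 had 8 reads over the NTX301 libraries and 2 over the DMSO libraries, too few to be tested.

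Genes with the pattern most like each member were taken as those with the smallest distance in log2 CPM, centred on the DMSO mean, over the 6 libraries, among 10499 genes averaging at least 10 CPM. For EXO1 these were FAM83D (distance 0.112), CENPL (0.153) and NRGN (0.170), with log2 fold changes of 1.85, 1.84 and 1.94. FAM83D and CENPL encode proteins of the spindle and the centromere, NRGN does not, and a shared role was not tested. Few genes lay near EXO1, with 7 within a distance of 0.2. For PMS2 they were MICAL1 (0.045) and XPO5 (0.064), with 329 genes within 0.2. For MSH3 they were IFT80 (0.032), GGA3 (0.054) and KAT2A (0.054), with 514 within 0.2. For PMS1 the second nearest was its neighbour ORMDL1 (0.086), after TRNT1 (0.085) and before LINC03015 (0.091), with 48 within 0.2. For MSH6 they were DSG2, UGP2 and TWSG1, and for MLH3 PLEKHA6, ENSG00000270504 and DUSP6, with 977 and 429 genes within 0.2. With 2 treatments of 3 libraries, this likeness rests mainly on the size of 1 difference.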

How the data were processed

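Groups and replicate numbers came from the labels. For each library the authors deposited a gene table in RSEM's format, per the file headers. The deposited expected counts are RSEM's estimates of reads, without normalization and not all whole. Deposited TPM are relative abundances that RSEM scales over all genes of a table. Gene lengths in bases are, per the file headers, RSEM's means over the transcripts of a gene. The deposited FPKM were not used. Not given in the sources used here were tool versions, genome build, annotation release and strand setting.

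Pseudoautosomal genes listed separately for chromosome Y (47 entries) were summed with their X copies. Positions came from GENCODE 29 (GRCh38) by stable identifier, which 58220 of the 62656 genes matched. Expected counts were rounded, filtered by filterByExpr (19029 genes), scaled by TMM (factors 1.07 to 1.08 for NTX301 and 0.921 to 0.939 for DMSO) and tested with glmQLFit and glmQLFTest of edgeR 4.0.16 in R 4.3.3, with treatment as the only term and a Benjamini-Hochberg threshold of 0.05. Each SE is the fold change divided by the root of its F value. The script was tested on simulated data. Alternatives used DESeq2 1.42.0, limma 3.58.1 with pseudocounts of 1 and 0.1, other scalings and filters, a replicate block and each library left out. Libraries of one treatment differed beyond sampling noise (chi-square over degrees of freedom 2.37 to 6.57), so none was taken for a duplicate.

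The members and lists were chosen with earlier results of these data known. Named genes were the members, their divergent neighbours, listed genes with the largest and smallest changes or closest roles, and the 3 genes of at least 10 CPM nearest to each member. Some genes that this rule covers are not reported here.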

Additional observations from a re-analysis of the deposited data

How the results depend on the processing

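EXO1 and PMS2 kept their direction and their call under all alternatives run, with log2 fold changes of 1.78 to 2.11 and 0.41 to 0.82. The other members turned on the scaling, since values without a TMM factor are not relative to the typical gene. With library totals only, on log2(TPM + 1) and on log2(TPM + 0.1), in this order, MSH3 had log2 fold changes of -0.09, -0.07 and -0.08 and was not called, so that the count of members that fell was 0 in each. In the same order MSH6 rose, by 0.25, 0.27 and 0.28, MLH3 had the opposite sign at 0.11, 0.09 and 0.10, and PMS1 had it at 0.11, 0.07 and 0.07. With the TPM values 4318 and 4297 genes fell, against 6677 in the fit reported, and with library totals 8793 rose and 4732 fell. Of all calls, 65.0% were rises with library totals and 66.7% on both TPM scales, against 50.2%. With 1 library left out, the members that fell numbered 1 to 2 and the log2 fold change of MLH3 was -0.16 to -0.07. The difference in the log2 MSH6 to MSH3 ratio stayed between 0.278 and 0.405. The replicate numbers are not said to pair cultures, and same-numbered libraries did not deviate together (correlations of 0.0805, -0.0277 and 0.0431). NTX301 replicates 2 and 3 did not correlate best with their own numbers. With a replicate block 6837 genes rose and 6749 fell, and no member changed its call. EXO1 with DMSO, at 168 to 234 reads, had the fewest reads behind it, and groups of 3 libraries limit all tests.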
